A study of Arabidopsis thaliana with 6 samples.

Results

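The ethylene and gibberellin pathways of the Arabidopsis petiole were followed through 4 genes: EIN3 (AT3G20770), ACO3 (AT1G12010), GID1A (AT3G05120) and GID1C (AT5G27320). They were picked by name among the 13356 genes that the platform annotation pairs with a probe set of their own. This choice of genes used no measured value, but it was made with earlier results of these data known. Each is measured by 1 probe set, so the rule of taking the probe set with the highest mean over the 6 arrays had no effect. The samples were petioles, the stalks of the leaves, of Arabidopsis thaliana plants from a dense canopy of 2066 plants per m2 or from single plants in separate pots, with 3 Affymetrix arrays for each group. All plants had 9 h of light and 15 h of dark at 20°C, were potted after 10 days and were harvested about 23 days after sowing, when the canopy had a leaf area index of 0.9 (leaf surface over the ground it covers). Each array holds RNA pooled from 4 plants, with 2 young petioles per plant, so that plant-to-plant spread within a pool cannot be seen. The sources used here do not give the accession or genotype of the plants, and no treatment other than planting density separates the groups.

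Ethylene is a gas hormone that plants make from methionine through S-adenosylmethionine and ACC, and ACC oxidases release it in the last step. Its receptors hold the pathway off until ethylene binds them, after which EIN2 signals to the nucleus and the transcription factor EIN3 escapes degradation and switches on ethylene-responsive genes. Gibberellins act by removing repressors: a gibberellin-bound GID1 receptor grips a DELLA protein, which is then tagged by the F-box protein SLY1 and destroyed. In leaves that are shaded or crowded, both hormones are known to promote the elongation of petioles. EIN3 and the DELLA proteins are controlled to a large degree by protein breakdown, which transcript levels do not show.

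The deposited values are RMA expression values, read as log2, and all levels and differences below are on that scale. The median probe set had a mean level of 1.29. Across probe sets, which are not independent of each other, Pearson r between arrays of 1 group was 0.990 to 0.994, and between arrays of different groups 0.987 to 0.991. Canopy replicate 1 stood apart from all other arrays on the second principal component. Green-tissue markers, of which 4 of 12 had a probe set, were high on all 6 arrays, between 8.88 and 11.2, and the root-hair expansin gene EXPA7 lay at 0.778 to 1.05. The meristem marker CLV3 lay at 0.516 to 0.841, and 0 of 6 vascular markers could be followed by name. The 3′ probe set of an actin control exceeded its 5′ probe set, a measure of RNA integrity, by 1.39 ± 0.11 on canopy arrays and by 1.64 ± 0.09 on single-plant arrays (SD, n = 3 each, exact permutation p = 0.1, the smallest possible), and its part in the results below was not tested. For a GAPDH control this was -0.211 ± 0.138 on canopy arrays and -0.278 ± 0.154 on single-plant arrays, with overlapping groups. A dap control read 3.39 ± 0.17 on canopy arrays and 3.72 ± 0.09 on single-plant arrays (SD, exact permutation p = 0.1). Array medians averaged 1.289 on canopy arrays and 1.310 on single-plant arrays. The groups did not overlap in these 2 measures or on the first principal component, and the part of the dap difference was not tested. Nothing in the labels says that the pools came from separate growth runs, so the p-values measure the spread between these pools.

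**Figure D1:**
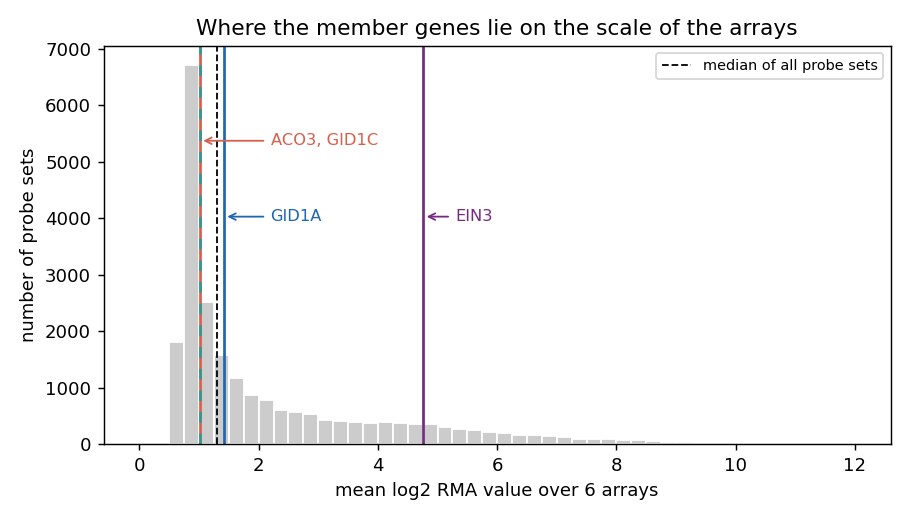
The grey bars count probe sets (vertical axis) by mean log2 RMA value over the 6 arrays (horizontal axis), the dashed line is the median of all probe sets, and the coloured lines are the 4 genes. EIN3, at 4.76, sits in the upper tail, whereas GID1A at 1.41, GID1C at 1.02 and ACO3 at 1.01 sit at the low end of the scale, near the tall peak; the lines of GID1C and ACO3 coincide.

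Of the 4 genes, EIN3 had a mean level of 4.76, above 87.5% of all probe sets. GID1A had a mean level of 1.41, at the 53.1 percentile, and GID1C and ACO3 had mean levels of 1.02 and 1.01, at the 38.6 and 38.1 percentiles. These positions describe where each probe set lies on the scale of the arrays, and they do not order the transcripts by abundance, because probes differ in how strongly they bind. Control probe sets for a bacterial trp gene, which plants lack, lay between 0.541 and 0.964 on these arrays; the sources used here do not say whether its RNA was added. The single-plant means of ACO3 and GID1C, 0.929 and 0.956, lay inside that range, and their canopy means, 1.09 and 1.08, lay just above it. Of the 154 probe sets that passed the test of canopy against single plants, 2 lay at or below the median level, although 11373 of the 22746 tested probe sets did. The differences of GID1C and ACO3, and to a lesser extent of GID1A, were thus measured where few calls were made, and RMA values near the bottom of the scale may understate a change.

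The comparison of canopy with single plants asks whether crowding had altered the transcripts of these hormone genes at this early stage of the canopy. EIN3, ACO3 and GID1C had higher means in the canopy, by 1.17-fold, 1.12-fold and 1.09-fold, and GID1A had a lower mean, at 0.938 times the level in single plants. The folds of ACO3 and GID1C rest on values within or just above the range of the trp controls and may not measure the transcripts. Not 1 of the 4 passed the limma test (0 called over all probe sets at a Benjamini-Hochberg adjusted p under 0.05, and 0 at an unadjusted p under 0.05). Over all 22746 probe sets tested, 0.677% passed at the adjusted threshold and 12.2% at the unadjusted one. The 95% intervals of all 4 differences spanned 0, and their upper ends were 1.40-fold for EIN3, 1.36-fold for ACO3, 1.25-fold for GID1C and 1.07-fold for GID1A. The lower ends were 0.976, 0.916, 0.946 and 0.822 of the level in single plants for EIN3, ACO3, GID1C and GID1A. A p above the threshold does not show that the levels were equal. In whole petioles, fewer cells that express a gene and less of its RNA per cell cannot be told apart.

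**Figure D2:**
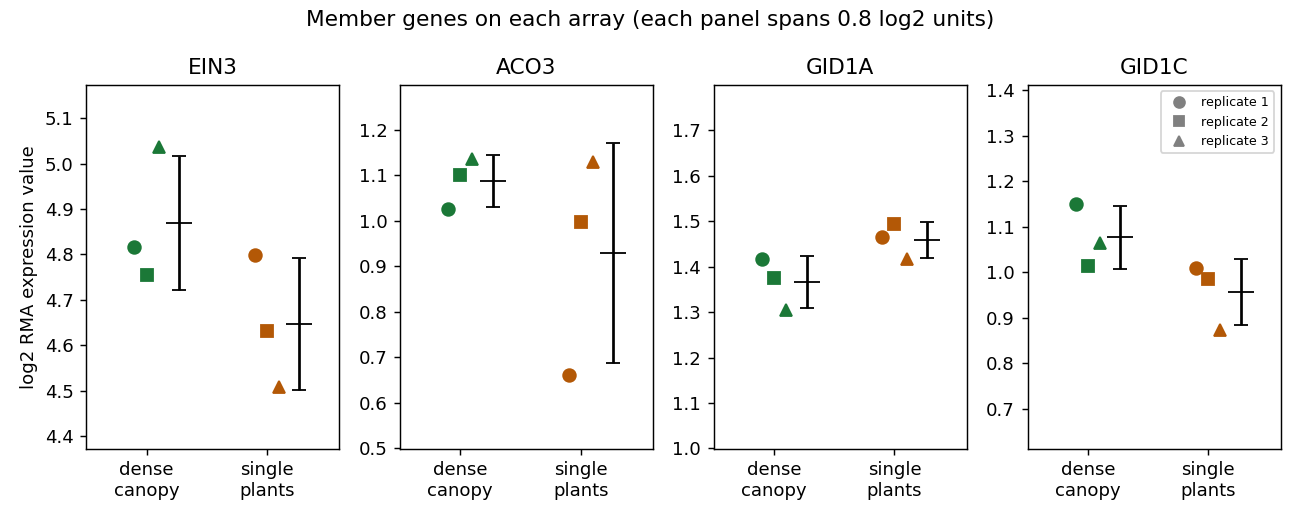
Each panel shows the log2 RMA value of 1 gene (vertical axis, 0.8 units in every panel) on the 3 dense-canopy arrays, left, and the 3 single-plant arrays, right, with a symbol for each replicate and the mean ± SD (n = 3) as a black bar. The canopy points of GID1C lie above all single-plant points, those of GID1A touch them, and ACO3 has 1 low single-plant array at 0.661.

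EIN3, which turns on the ethylene response genes, had values of 4.82, 4.75 and 5.04 in canopy replicates 1 to 3, against 4.80, 4.63 and 4.51 in single-plant replicates 1 to 3. The groups overlapped, since single-plant replicate 1 stood above canopy replicate 2, and the highest value was that of canopy replicate 3. The means were 4.87 ± 0.15 in the canopy and 4.65 ± 0.14 in single plants (SD, n = 3 each). The difference was 0.22 ± 0.11 (log2, SE, 95% interval -0.04 to 0.48), with an unadjusted limma p of 0.0824 and an adjusted p of 0.487. It was larger in size than that of 81.7% of all probe sets, yet 3846 probe sets had a smaller p. With the spread of its values, a difference of 0.64 (1.56-fold) would have been needed for a call at the adjusted threshold. Without canopy replicate 3 the difference was 0.14, and without single-plant replicate 1 it was 0.30.

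ACO3, an ACC oxidase that releases ethylene, had values of 1.03, 1.101 and 1.14 in the canopy replicates, against 0.661, 0.997 and 1.13 in single plants. The canopy arrays were close to each other, whereas single-plant replicate 1 lay well below the other two, and single-plant replicate 3 was as high as the canopy arrays. The means were 1.09 ± 0.06 in the canopy and 0.929 ± 0.241 in single plants (SD, n = 3 each), and the difference was 0.16 ± 0.13 (log2, SE, 95% interval -0.13 to 0.44, limma adjusted p = 0.694). Without single-plant replicate 1 the difference was 0.025, so that the higher canopy mean rested on that array. The spread of ACO3 was wide for the array, with a residual SD larger than that of 70.7% of probe sets, and a 1.64-fold difference would have been needed for a call.

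Of the 66 ethylene genes in the list, 5 had a probe set of their own. At a limma adjusted p under 0.05, 0 of the 5 were called, against 0.677% of all probe sets. At an unadjusted p under 0.05, 0 of the 5 passed, against 12.2% of all probe sets. The median difference of the 5 was 0.16, against -0.003 over all probe sets, with 4 positive and 1 negative. The 0.16 is the value of ACO3, which lay near the trp controls and fell to 0.025 without single-plant replicate 1. ARD4, of the acireductone dioxygenase family, which serves the methionine salvage cycle that feeds ethylene synthesis, differed by 0.098 ± 0.156 (log2, SE). RTE1, which promotes the activity of the receptor ETR1, differed by 0.18 ± 0.14, and its canopy replicate 2 at 2.75 stood above the other two canopy arrays at 2.28 and 2.24. ETP2, an F-box protein that targets EIN2 for degradation, was the one with a lower mean in the canopy. Its values were 1.03, 1.06 and 1.00 in the canopy, against 1.21, 1.39 and 1.09 in single plants. All 3 canopy arrays of ETP2 lay below all 3 single-plant arrays, but the difference of -0.20 ± 0.10 (log2, SE) did not pass (limma unadjusted p = 0.0804, adjusted p = 0.483). The canopy values of ETP2 lay just above the trp controls, which reached 0.964, so its difference may not measure the transcript. Groups that do not overlap were found for 17.0% of all probe sets. None of the 19 ethylene-response genes of the list, such as the ERF and EDF transcription factors, could be followed by name, and of the 17 synthesis genes only ACO3 could.

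GID1A, a gibberellin receptor, had values of 1.42, 1.38 and 1.31 in the canopy replicates, against 1.46, 1.49 and 1.42 in single plants. The groups met at a single point, with canopy replicate 1 at 1.418 and single-plant replicate 3 at 1.416, and were otherwise separate. The means were 1.37 ± 0.06 in the canopy and 1.46 ± 0.04 in single plants (SD, n = 3 each). The difference of -0.09 ± 0.08 (log2, SE, 95% interval -0.28 to 0.10) had a limma adjusted p of 0.751. GID1A was among the steadiest probe sets, with a residual SD below that of all but 4.33% of them. Residual SDs were smaller at low levels, typically 0.108 below the median level and 0.169 above it. GID1A, at a mean of 1.41, lay near that median of 1.29, and the part of its level in this steadiness was not tested. With its moderated SE of 0.08, a 1.39-fold difference would have been enough for a call. That SE was 0.11 with an intensity trend and robust moderation. Its difference was near the middle of all probe sets in size, at the 48.1 percentile.

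GID1C, a second receptor of the same family, had values of 1.15, 1.01 and 1.06 in the canopy replicates, against 1.01, 0.985 and 0.873 in single plants. All canopy arrays lay above all single-plant arrays, by a narrow margin between canopy replicate 2 at 1.014 and single-plant replicate 1 at 1.009. The means were 1.08 ± 0.07 in the canopy and 0.956 ± 0.073 in single plants (SD, n = 3 each). The difference of 0.12 ± 0.09 (log2, SE, 95% interval -0.08 to 0.32) did not pass, with a limma unadjusted p of 0.207 and an adjusted p of 0.667. The third receptor of the family, GID1B, had values of 0.967, 0.870 and 0.900 in the canopy, against 0.877, 1.102 and 0.766 in single plants. The canopy values of GID1B lay inside the range of the single-plant ones, and the difference was -0.002 ± 0.106 (log2, SE, limma adjusted p = 0.997). Its mean level of 0.914 lay inside the range of the trp controls, so the GID1B values may not measure the transcript.

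GID1A and GID1C thus had differences of opposite sign, and whether they changed unequally was asked within each array. There, a shift added equally to both log2 values cancels, but other array effects may not. The GID1C value minus the GID1A value was -0.267, -0.361 and -0.241 on the canopy arrays, against -0.456, -0.509 and -0.543 on the single-plant arrays. The 2 groups did not overlap, and the gap between the 2 receptor probe sets was smaller on every canopy array. The gap averaged -0.290 ± 0.063 in the canopy and -0.503 ± 0.044 in single plants (SD, n = 3 each), and its change was 0.21 (95% interval 0.09 to 0.34, from the pooled spread of the 6 arrays). The exact two-sided permutation test gave p = 0.1, the smallest that 3 arrays against 3 allow, and 0.2 after adjustment over the 2 pairs compared. The design therefore cannot bring this difference past 0.05 by permutation, and the pair was compared with the signs of both genes already known. Leaving out 1 array at a time gave changes of 0.19 to 0.25, and repeated quantile normalization gave 0.17. The GID1C values lay within or just above the range of the trp controls, so the change of the gap may not measure its transcript. The size of the gap on any one array carries no meaning for abundance, as the 2 probe sets differ in binding.

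**Figure D3:**
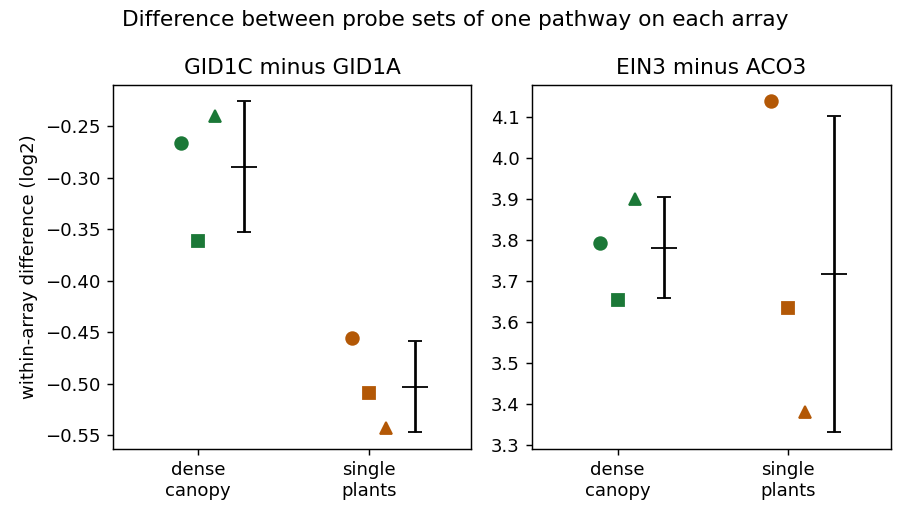
Points are the log2 difference between both probe sets on 1 array (vertical axis), with dense-canopy arrays left and single-plant arrays right in each panel and black bars for the mean ± SD (n = 3). For GID1C minus GID1A the canopy arrays span -0.361 to -0.241 and the single-plant arrays span -0.543 to -0.456, whereas for EIN3 minus ACO3 the canopy arrays lie inside the range of the single-plant arrays.

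The same comparison for the ethylene pair gave no such separation. EIN3 minus ACO3 was 3.79, 3.65 and 3.90 on the canopy arrays, against 4.14, 3.64 and 3.38 on the single-plant arrays. The canopy arrays lay inside the range of the single-plant ones, and the change was 0.064 (95% interval -0.58 to 0.71, exact permutation p = 0.8). The difference had an SD of 0.385 among single-plant arrays, where ACO3 was lowest and EIN3 highest in replicate 1, and the sign of the change turned when single-plant replicate 3 was left out (-0.10).

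Of the 59 gibberellin genes in the list, 10 had a probe set of their own, the 3 receptors among them. At a limma adjusted p under 0.05, 0 of the 10 were called, against 0.677% of all probe sets. At an unadjusted p under 0.05 there was 1 of the 10, XERICO, with a higher mean, against 12.2% of all probe sets at that threshold. The median difference of the 10 was 0.003, against -0.003 over all probe sets, with 5 positive and 5 negative. No gene of gibberellin synthesis (14 in the list) or inactivation (11) could be followed by name, nor could the DELLA genes themselves.

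Among the regulators of DELLA proteins, SLY1, the F-box protein that marks DELLA proteins for destruction, averaged 3.17 ± 0.32 on canopy arrays and 3.16 ± 0.04 on single-plant arrays (SD, n = 3 each). The means were nearly the same, while the canopy arrays ranged from 2.91 to 3.52 and the single-plant arrays from 3.12 to 3.21. SNE, an F-box protein related to SLY1, differed by 0.043 ± 0.103 (log2, SE) at a low mean level of 0.862. SPY, a sugar transferase that modifies DELLA proteins, differed by -0.17 ± 0.15, and SEC, its relative that attaches a different sugar, by 0.13 ± 0.17. All 4 had overlapping groups and limma adjusted p of 0.739 to 0.992.

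XERICO, a RING-type ubiquitin ligase gene that DELLA proteins induce and that raises abscisic acid levels, had the smallest p of the 15 measured genes of both pathways. Its values were 3.72, 3.97 and 3.85 in the canopy, against 3.34, 3.43 and 3.46 in single plants. All canopy arrays lay above all single-plant arrays. The gap between the groups was wider than the range of the single-plant arrays (0.12) but not than that of the canopy arrays (0.26). The difference of 0.44 ± 0.10 (log2, SE, 95% interval 0.21 to 0.66), a 1.35-fold higher canopy level, had an unadjusted limma p of 0.00164 and an adjusted p of 0.10001, which does not pass. Leaving out 1 array at a time gave differences of 0.37 to 0.50 and limma adjusted p of 0.0767 to 0.268. GASA9 and GASA10, of a family of small cysteine-rich proteins with many gibberellin-regulated members, had differences of the other sign, -0.24 ± 0.19 and -0.20 ± 0.11 (log2, SE), with overlapping groups and limma adjusted p of 0.688 and 0.512. The GASA10 canopy mean of 1.00 lay just above the trp controls, which reached 0.964, so its difference may not measure the transcript.

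**Figure D4:**
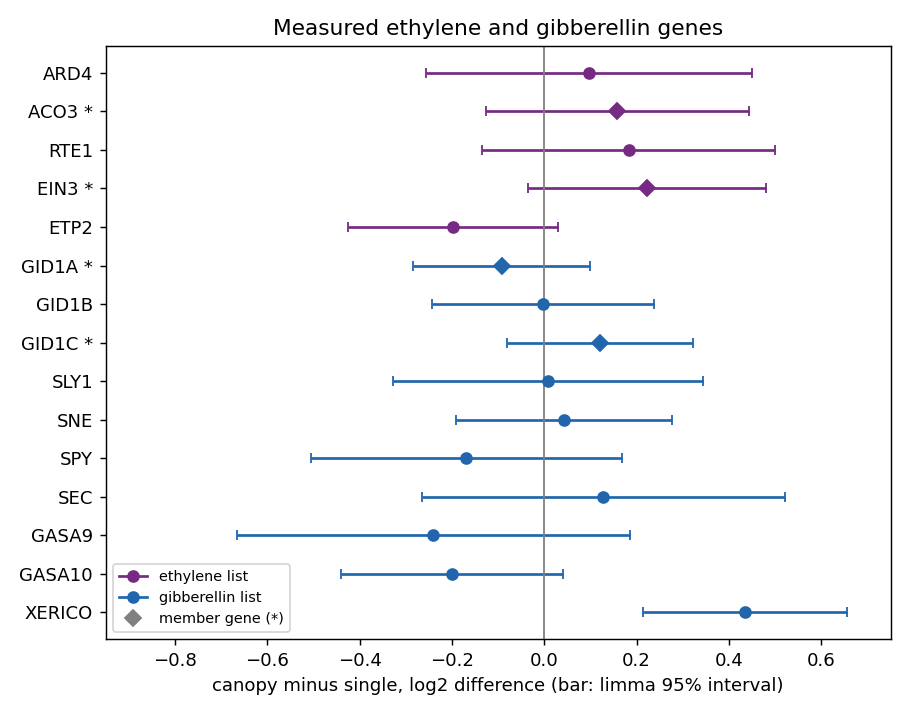
Each row is 1 of the 15 measured genes, with the canopy minus single difference (log2, horizontal axis) as a point and its limma 95% interval as a bar; purple marks the ethylene list, blue the gibberellin list and diamonds the 4 genes described first. All intervals but that of XERICO (0.21 to 0.66) span 0, and the intervals are unadjusted.

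Over both lists, 15 of 125 genes were measured, of which 0 passed limma at the adjusted threshold, against 0.677% of all probe sets, and 1 (XERICO) at the unadjusted one, which is 6.67% of the 15 against 12.2% of all probe sets. Groups did not overlap for 3 of the 15 (GID1C, ETP2 and XERICO), which is 20.0% against 17.0% over all probe sets. The median size of the difference, without its sign, was 0.159 for the 15 genes and 0.097 for all probe sets. The 0.159 is the value of ACO3, and the 2 sets are not matched for level. Of the 15 genes, 9 lay above the median level, where the typical residual SD was 0.169, against 0.108 below it. The 110 list genes that could not be followed by name may be among the 8730 probe sets with no gene in the annotation used here, so these counts describe the 15 genes and not the pathways.

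Each of the 4 genes was also set against 6014 or 6015 named probe sets above the median level, to find those whose values moved most like it over the 6 arrays. For EIN3, the 3 closest were AT3G14200, the plastid gene psbA, which encodes the D1 protein of photosystem II, and AT1G65490, with Pearson r of 0.994, 0.991 and 0.987. The psbA probe set had values of 6.43, 6.36 and 6.67 in the canopy, against 6.46, 6.18 and 6.05 in single plants, with the same high canopy replicate 3 and low single-plant replicate 3 as EIN3. For ACO3 the closest were CBL, a cystathionine beta-lyase of methionine synthesis, AT4G38250 and AT2G46170, with r of 0.984, 0.975 and 0.972. CBL had values of 5.57, 5.64 and 5.69 in the canopy, against 5.20, 5.62 and 5.66 in single plants, and shared the low single-plant replicate 1. GID1A was closest to AT5G41770, AT1G62860 and AT2G21440, with r of 0.996, 0.984 and 0.984. GID1C was closest to AT4G27130, of the SUI1 family of translation initiation factors, AT4G11410 and AT1G11780, with r of 0.984, 0.982 and 0.979. The probe sets share the same 6 arrays, and r above 0.9 was found for 41 probe sets with EIN3, 21 with ACO3, 83 with GID1A and 52 with GID1C, so these likenesses are a description of 6 arrays.

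**Figure D5:**
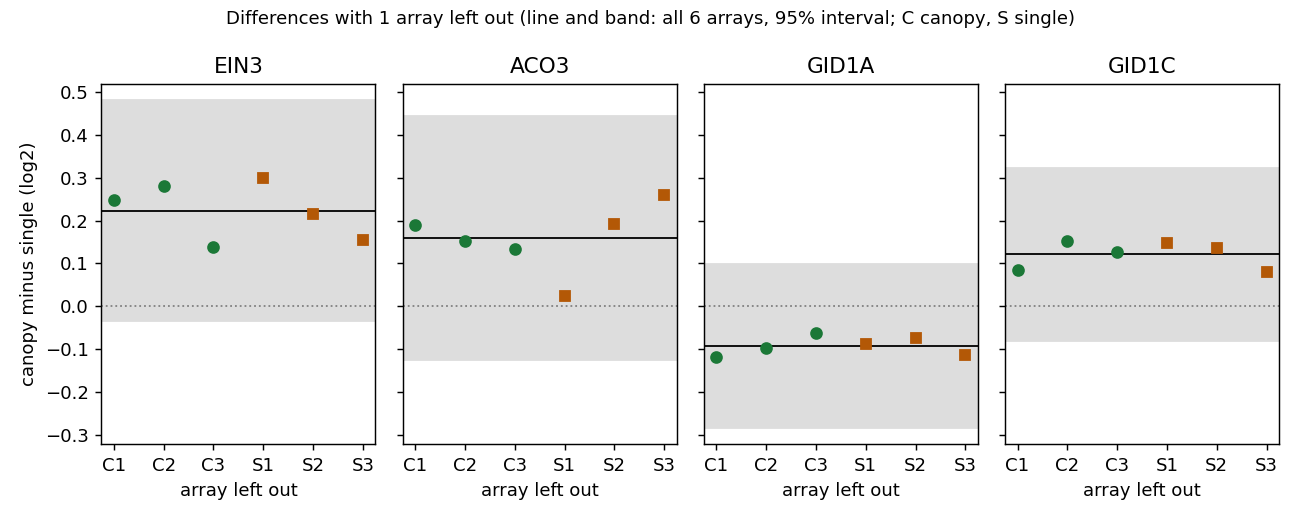
Points give the canopy minus single difference (log2, vertical axis) after leaving out the array named on the horizontal axis (C canopy, S single plants, by replicate), with the difference from all 6 arrays as a line and its 95% interval as a grey band. All points stay inside the bands and keep their sign, and the lowest for ACO3, 0.025, is the one without single-plant replicate 1.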

How the data were processed

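Petiole RNA from 3 dense-canopy and 3 single-plant pools was measured on Affymetrix arrays. The authors deposited log2-scale RMA values, for which the submitters' processing notes name R 2.15.0; the sources used here give no log base, zero point or chip definition, and base 2 is the usual RMA scale. Of 22810 probe sets, 64 controls were left out, and 13513 of the 22746 tested were paired with 1 gene through the platform annotation, with loci from RefSeq (TAIR10.1). Gene coordinates and sequences were not used here. Differences (canopy minus single) were tested over all 22746 probe sets with limma 3.58.1 (lmFit, eBayes, two-sided, R 4.3.3), with Benjamini-Hochberg adjustment, without a level filter or replicate block. Single within-array differences were compared with exact permutation tests. No detection calls were used, and the number of arrays limits the precision. The named genes were the 4 members, the list genes with a probe set and, for each member, the 3 most correlated named probe sets above the median level. The members and lists were chosen with earlier results of these data known. The alternatives were a block for the replicate number, array scaling, moderation, array weights, a level filter, the probe sets used, thresholds and leaving out each array. For the 4 members, an exact permutation test was a further alternative.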

Additional observations from a re-analysis of the deposited data

How the results depend on the processing

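EIN3, ACO3, GID1A and GID1C kept their direction and stayed above the threshold under every alternative run. For the exact permutation test that outcome was fixed in advance, since 3 arrays against 3 cannot give a p below 0.1. Without 1 array, the differences ranged from 0.14 to 0.30 for EIN3, 0.025 to 0.26 for ACO3, -0.12 to -0.06 for GID1A and 0.08 to 0.15 for GID1C, and the limma adjusted p lay between 0.479 and 0.974. The filter on low levels left no value for ACO3 and GID1C. Each of the 15 measured list genes had 1 probe set, so averaging probe sets changed nothing. The change of EIN3 minus ACO3 ranged from -0.10 to 0.27 without 1 array, and turned without single replicate 3. With the replicate number as a block, 39 probe sets were higher and 24 lower, against 97 and 57 without it, and no call on a listed gene changed. Arrays with the same number had deviations from their group means with r of 0.0024, 0.0989 and -0.064. Of the 6 arrays, 2 had their highest r with the array of their number. With so few arrays these values cannot decide whether a number marks a shared growth run, and the labels do not say. With an intensity trend and robust moderation 151 were higher. With only probe sets of 1 gene 36 were higher and 17 lower. At an adjusted p under 0.1, 188 were higher and 181 lower. At an unadjusted p under 0.05, 1168 were higher and 1618 lower, with 1 gibberellin gene, XERICO, among the higher. Without 1 array, 16 to 94 were higher and 1 to 65 lower, fewest without single replicate 2, and 0 listed genes passed. Equal array medians moved no difference of the 4 across 0. Levels near the bottom of the scale limit what ACO3, GID1C and GID1A can show.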
